A study of Mus musculus with 4 samples.

Results

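The genes described here were 10 human transcripts of granulocyte granules and surfaces, EPX, CLC, PRG2, RNASE2, RNASE3, IL5RA, SIGLEC8, CCR3, CAMP and VSTM1, out of 33538 human genes counted. They were followed in the 18106 barcodes that had over 50% of their unique molecular identifiers (UMIs) on human genes, and the question was which cells carried them in blood and injured spinal cord and whether eosinophil, basophil and neutrophil genes occurred in the same cells. The study sequenced human leukocytes from huNSG-SGM3 mice, immunodeficient hosts engrafted with human CD34+ cord-blood cells, in 4 libraries of sorted huCD45+ live cells. All hosts were of the NOD background and carried the alleles Prkdcscid and IL2rgtm1Wjl with the 1Eav transgene (strain name ending MloySzJ), in which the CMV promoter drives human IL3, CSF2 and KITLG in every animal, naïve hosts included, and the age label was 15 weeks. In the paper, sham and SCI hosts were operated on 15 weeks after engraftment and cells were collected 7 days later. Blood came from naïve hosts with no procedure, from sham hosts with a T9 laminectomy and from hosts with a T9 contusion (SCI), the last 2 at 7 days post-injury (dpi), and cord cells came from SCI hosts at 7 dpi. Naïve and sham hosts were male and SCI hosts of both sexes were pooled, so host sex and injury cannot be told apart. Each library pooled cells of several animals and each group was 1 library, so no test between groups was possible, and every interval below covers counting error only.

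Eosinophils store cationic proteins in their specific granules. PRG2 encodes the major basic protein, EPX the eosinophil peroxidase and RNASE2 and RNASE3 the ribonucleases known as eosinophil-derived neurotoxin and eosinophil cationic protein, while CLC encodes galectin-10, the protein of Charcot-Leyden crystals. IL5RA is the receptor chain for IL-5, which sustains eosinophil production, CCR3 is the eotaxin receptor and SIGLEC8 is an inhibitory lectin of eosinophils and mast cells. Basophils share several of these genes, CLC, CCR3 and IL5RA among them, and arise with eosinophils and mast cells from GATA-dependent progenitors. CAMP encodes cathelicidin, stored in the secondary granules of neutrophils, and VSTM1 encodes an inhibitory receptor of granulocytes and monocytes. Granule transcripts of neutrophils and of eosinophils are most abundant in maturing precursors and fall as the cells mature.

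Human barcodes numbered 6713 (naïve blood), 4972 (sham blood), 6283 (SCI blood) and 138 (cord), with median human UMIs of 3656, 5201, 4634 and 8569.5 per barcode. PTPRC, which encodes CD45, was detected in 95.5%, 97.7%, 97.8% and 89.1% of them. Library pairs shared between 0 and 10 cell barcodes, and none of the eosinophil-like cells described below was among these. The cord library was small, so 0 UMIs of a gene among its 138 barcodes was read as a limit of 3 counts, which is 2.17% of barcodes with a UMI or 2.69 CPM, and not as a limit on the cells that express it. CPM here scale UMIs to a library total of 1e6 human UMIs, leaving out ribosomal protein and mitochondrial genes. Ratios between libraries are log2 ratios of CPM with 0.5 counts added, for genes with 20 or more UMIs over both libraries, and a gene was counted as different at 2-fold or more.

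CLC had the most UMIs of the 10 genes in each library. Naïve blood was at 92.8 CPM (2174 UMIs in 107 barcodes), sham blood at 211 CPM (4671 UMIs in 114 barcodes), SCI blood at 80.8 CPM (1875 UMIs in 102 barcodes) and the cord at 2170 CPM (2418 UMIs in 32 barcodes). About the same number of barcodes carried CLC in each blood library, but the libraries differed in size. As shares, 1.59% (1.31 to 1.92%) of naïve, 2.29% (1.89 to 2.75%) of sham and 1.62% (1.33 to 1.97%) of SCI blood barcodes carried CLC. The sham share was the highest, with an interval that overlapped the others slightly, and the sham library also held the most CLC UMIs in blood. In the cord 23.2% of human barcodes carried it.

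The other eosinophil granule genes were rare. EPX had 85 UMIs in 3 naïve barcodes (3.63 CPM), 84 UMIs in 12 sham barcodes (3.80 CPM), 10 UMIs in 3 SCI blood barcodes (0.431 CPM) and 0 UMIs in SCI cord. The blood levels of EPX in SCI hosts lay under the 2.69 CPM that the cord library could resolve, so for all cord cells together a difference in EPX from SCI blood was not detectable at this depth. RNASE2 was at 4.57, 5.33, 1.12 and 19.7 CPM in the same order (107, 118, 26 and 22 UMIs), and RNASE3, its close paralog, had 3, 6, 3 and 0 UMIs. RNASE2 and RNASE3 are similar in sequence, so the division of reads between them is uncertain. PRG2 had 12 UMIs in a single naïve barcode, 10 in 8 sham barcodes, 4 in 4 SCI blood barcodes and 19 in 3 cord barcodes.

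CCR3 and IL5RA differed by under 2-fold between the blood libraries. CCR3 was at 9.52, 14.4 and 14.0 CPM in naïve, sham and SCI blood (223, 318 and 324 UMIs) and 12.6 CPM in SCI cord (14 UMIs in 5 barcodes). IL5RA was at 4.53, 5.56, 5.95 and 16.2 CPM, and SIGLEC8 at 0.384, 0.768, 0.948 and 29.6 CPM, the last from 33 UMIs in 19 cord barcodes. CAMP was at 2.39, 4.70, 2.11 and 109 CPM and VSTM1 at 4.23, 4.11, 1.72 and 126 CPM. The cord levels of CLC, PRG2, RNASE2, IL5RA, SIGLEC8, CAMP and VSTM1 thus lay above all 3 blood libraries, whereas that of CCR3 lay within their range.

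**Figure D1:**
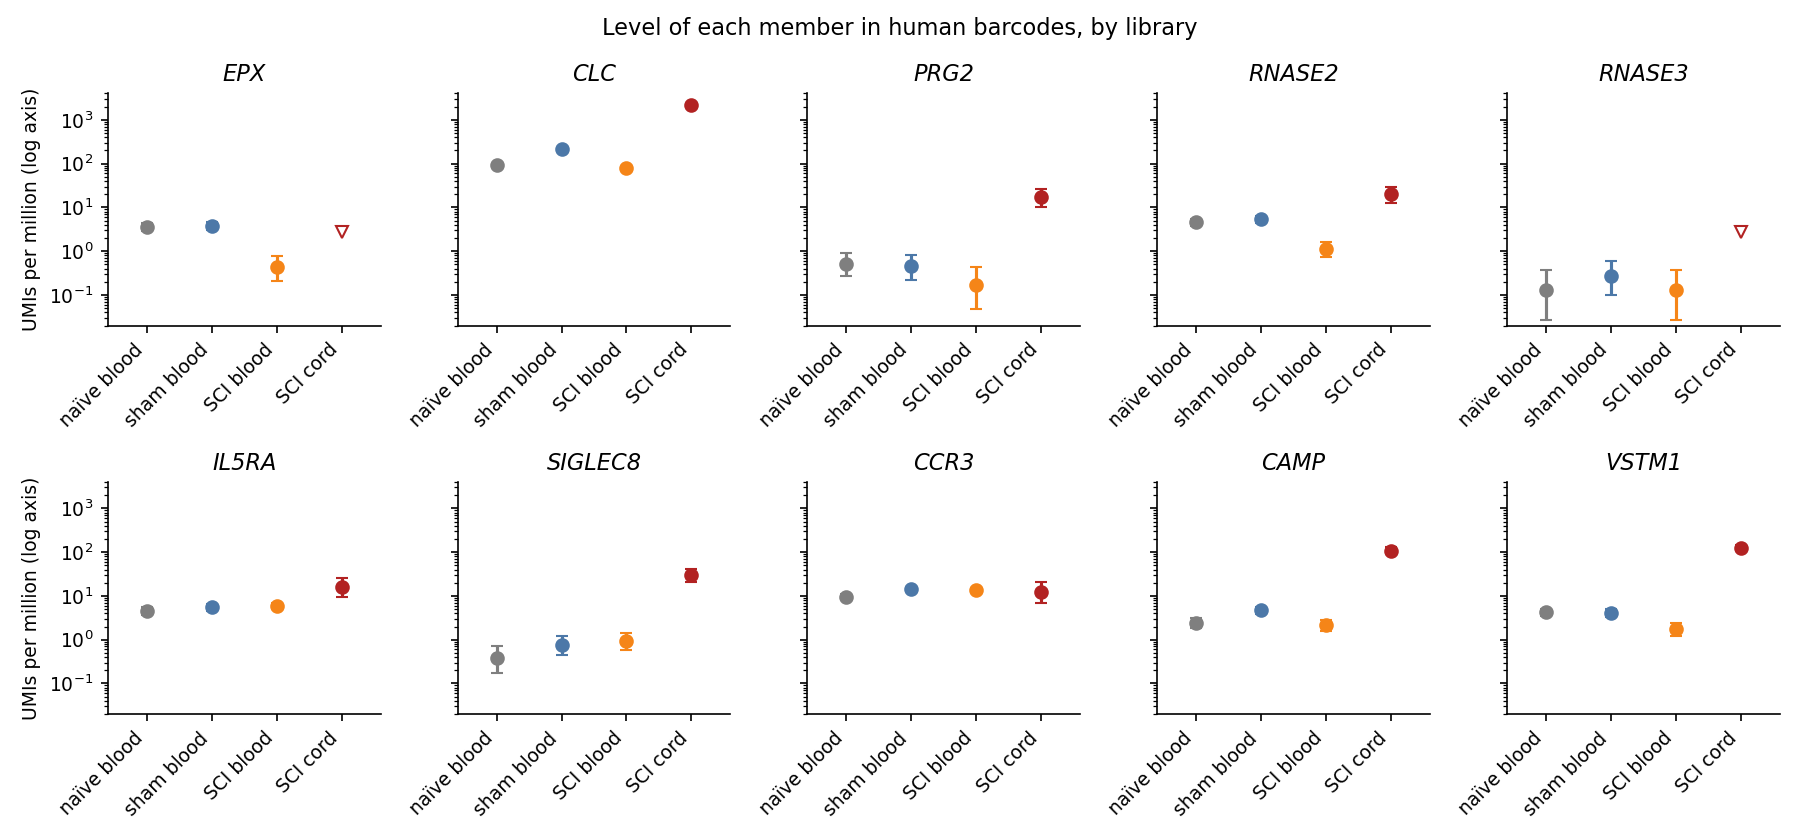
Level of each of the 10 genes in each library, in CPM on a log axis, with 95% exact Poisson intervals that cover counting error only; an open triangle marks a gene with no UMI, drawn at 3 counts. CLC had the highest CPM in each library, and the cord library lay above the blood libraries for CLC, PRG2, RNASE2, IL5RA, SIGLEC8, CAMP and VSTM1 but not for CCR3.

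Between sham and naïve blood, 1 of 9 testable members differed 2-fold or more, against 721 of 14666 genes (4.92%). This was CLC, with a log2 ratio of 1.18 (95% interval 1.11 to 1.26). CAMP (0.97) and SIGLEC8 (0.96) fell just short of 2-fold, and the median of the members was 0.30 against 0.06 for all genes tested. Without the doublet-marked barcodes 4 of the members passed 2-fold and by UMIs per barcode 3 did, so the count of 1 depended on these choices.

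Between SCI and sham blood, 5 of 8 testable members were 2-fold or more lower in SCI blood and none was higher, against 771 of 14642 genes past 2-fold either way (5.27%). EPX had a log2 ratio of -3.08 (-4.25 to -2.19), RNASE2 -2.23 (-2.92 to -1.63), CLC -1.39 (-1.46 to -1.31), VSTM1 -1.24 and CAMP -1.15. The receptors stayed within 2-fold, with IL5RA at 0.10, CCR3 at -0.04 and SIGLEC8 at 0.29. RNASE2 and VSTM1 had most of their blood UMIs in monocyte-like cells, as described below. SCI blood held 18 monocyte-like cells (0.286% of barcodes) against 106 (2.13%) in sham and 161 (2.40%) in naïve blood. Inside those cells RNASE2 was at 82.9, 61.8 and 85.0 CPM and VSTM1 at 86.9, 51.8 and 79.3 CPM in naïve, sham and SCI blood. Inside eosinophil-like cells RNASE2 was also lower in SCI than in sham blood, with 9 against 46 UMIs (log2 ratio -2.01, -3.29 to -1.03), 41 of the 46 in a single cell. The part of the monocyte-like cell number in the library-wide ratios was not tested.

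Between SCI and naïve blood, 4 of 8 testable members passed 2-fold, 3 lower and 1 higher, against 1145 of 14692 genes (7.79%). EPX (-3.01, -4.19 to -2.13), RNASE2 (-2.01, -2.71 to -1.40) and VSTM1 (-1.28, -1.86 to -0.75) were lower and SIGLEC8 (1.26, 0.13 to 2.61) was higher. The EPX ratio rested on 1 naïve barcode, which held 83 of the 85 EPX UMIs of its library and was marked as a doublet. Without it 10 EPX UMIs in SCI blood stood against 2 in naïve blood, under the minimum of 20, so no direction was read, and the sham to naïve ratio of EPX moved from 0.06 to 5.16 (84 against 2 UMIs). The EPX ratios to naïve blood therefore depended on that barcode. Comparisons that share the naïve, the sham or the SCI blood library are not independent of each other.

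Between SCI cord and SCI blood, 7 of 8 testable members were 2-fold or more higher in the cord, against 3125 of 13511 genes past 2-fold either way (23.1%), and the median of the members was 4.85 against -0.01 for all genes tested. PRG2 had a log2 ratio of 6.50 (5.04 to 8.64), VSTM1 6.18 (5.67 to 6.73), CAMP 5.68 (5.20 to 6.19) and SIGLEC8 4.96 (4.14 to 5.81). CLC followed with 4.75 (4.66 to 4.84), RNASE2 with 4.14 (3.25 to 5.02) and IL5RA with 1.48 (0.65 to 2.16), while CCR3 stayed at -0.10 (-1.04 to 0.62). EPX and RNASE3 had under 20 UMIs and were not tested. These ratios joined a difference in which cells were present with any difference inside the cells. Cord cells were also digested with papain and enriched on magnetic beads before sorting, and their part in the ratios was not tested.

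To see which cells carried the genes, the human barcodes were clustered without the 10 members, and clusters were named from marker lists. A cluster of 44 cells is called eosinophil-like, because 13 of the 16 genes of the eosinophil lists (8 members and 8 further genes) were each found in at least 10% of its cells, with a median CPM ratio of 74.4 to all other cells. Its 10 leading genes were CCL26 (eotaxin-3), INHBA (an activin chain), ID1, SELP (P-selectin), EPX, VSTM1, ADGRE3, SUCNR1, CAMP and LGALS12, so EPX was the single eosinophil list gene among them. Because the members and the 8 further genes helped to name the cluster, its content of all these genes is a description. It held the same 44 cells at all 3 clustering resolutions, and PTPRC was detected in 41 of them. The cells were spread very unevenly over the libraries, with 5 naïve (0.0745% of barcodes), 13 sham (0.261%) and 8 SCI cells in blood (0.127%) and 18 cells in the cord (13.0%, 95% interval 7.92 to 19.8%). Blood barcodes of the cluster were shallow, with median UMIs of 1556, 2754 and 5166.5 in naïve, sham and SCI blood against 9544.5 in the cord. A filter of 3 median absolute deviations on UMIs, genes, mitochondrial share and ribosomal share flagged 10 of the 26 blood cells and 5 of the 18 cord cells.

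Another granulocyte cluster had 3 mast cell and 2 basophil markers among its 10 leading genes and is called basophil and mast-like. It held 109, 127 and 144 cells in naïve, sham and SCI blood (1.62%, 2.55% and 2.29%) and 20 in SCI cord (14.5%). In blood HDC, the histidine decarboxylase that makes histamine, was detected in 367 of its 380 cells, and the mast cell tryptase TPSAB1 in 146. The cord cells of this cluster held more mast cell RNA, with a median of 71 UMIs over 8 mast cell genes against 4 in SCI blood, beside 55.5 and 36 UMIs over 8 basophil genes. No cluster at this resolution had a neutrophil list gene among its 10 leading genes.

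**Figure D2:**
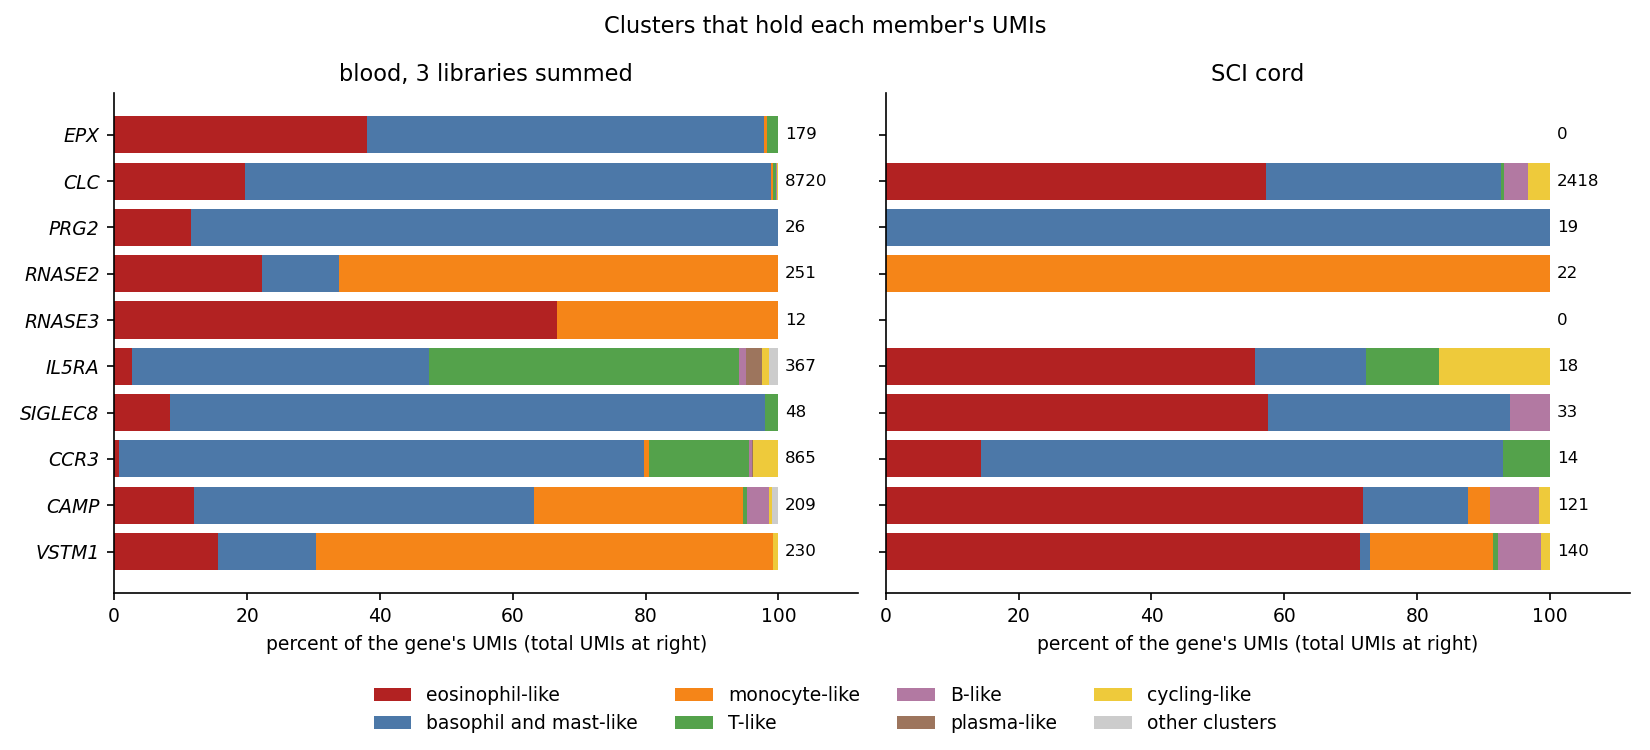
Share of each gene's UMIs found in each named cluster, in percent, for blood (3 libraries together) and SCI cord, with the number of UMIs at the right of each bar. In blood CLC, PRG2, SIGLEC8 and CCR3 lay mostly in basophil and mast-like cells and RNASE2 and VSTM1 mostly in monocyte-like cells, and in the cord CLC, CAMP and VSTM1 lay mostly in eosinophil-like cells.

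In blood most UMIs of CLC, SIGLEC8 and PRG2 were in basophil and mast-like cells and not in eosinophil-like cells. Of 8720 blood CLC UMIs, 79.2% were in basophil and mast-like cells and 19.6% in eosinophil-like cells. By share of cells the order was the reverse. CLC was detected in 24 of 26 eosinophil-like cells (92.3%, 74.9 to 99.1%) and in 229 of 380 basophil and mast-like cells (60.3%, 55.1 to 65.2%). The pooled levels were 23506 and 4603 CPM. By library they were 6687 and 6590 CPM in naïve, 33542 and 5471 in sham and 15024 and 2517 in SCI blood. Without the 3 cells richest in CLC of each cluster and library they were 831 and 2932, 11985 and 3853, and 1147 and 2042 CPM. The order of levels thus differed between libraries. In T-like blood cells CLC was found in 46 of 12716 (0.362%, median depth 4300 UMIs), a share like the 0.425% to 0.503% of mouse-majority barcodes in blood (median depth 1837 to 2066 UMIs, mouse and human together), and was read as background. Most UMIs of SIGLEC8 and PRG2 in blood were in basophil and mast-like cells as well, 89.6% of 48 and 88.5% of 26, and so were all 19 cord UMIs of PRG2. Of the 26 blood PRG2 UMIs, 12 were in 1 naïve barcode marked as a doublet.

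RNASE2 was carried mainly by another cell type. It had 66.1% of its 251 blood UMIs in monocyte-like cells, 71 of its 82 blood carriers were monocyte-like, and all 22 of its cord UMIs were in 5 monocyte-like cells. Eosinophil-like cells held 22.3% of RNASE2 UMIs in blood. RNASE3 had 12 blood UMIs, 66.7% in eosinophil-like and 33.3% in monocyte-like cells, and all 7 of its blood carriers also had RNASE2. RNASE2 is known from monocytes as well as eosinophils, so on its own it did not mark an eosinophil here.

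IL5RA and CCR3 were also seen outside granulocytes. IL5RA had 44.7% of its 367 blood UMIs in basophil and mast-like cells and 46.6% in T-like cells, where 157 of 12716 cells carried it (1.23%, 1.05 to 1.44%). CCR3 had 79.1% of 865 UMIs in basophil and mast-like cells and 15.0% in T-like cells, 113 of which carried it (0.889%, 0.733 to 1.07%). In B-like cells of like depth (median 4424.5 UMIs) the shares were 0.141% (0.0384 to 0.361%) for IL5RA and 0.106% for CCR3, and 0 of 285 monocyte-like cells had IL5RA. The T-like shares thus exceeded those of B-like cells beyond counting error, although they were far below the 29.7% and 58.7% of basophil and mast-like cells.

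CAMP and VSTM1 were carried by 3 cell types in blood. CAMP had 51.2% of its 209 blood UMIs in basophil and mast-like cells, 31.6% in monocyte-like cells and 11.96% in eosinophil-like cells. VSTM1 had 68.7% of 230 UMIs in monocyte-like cells, 15.7% in eosinophil-like cells and 14.8% in basophil and mast-like cells. In the cord the eosinophil-like cluster held 71.9% of 121 CAMP UMIs and 71.4% of 140 VSTM1 UMIs. This cluster was 13.0% of cord barcodes against 0.145% of blood barcodes. As levels, CAMP stood at 343 CPM (222 to 506) in blood eosinophil-like cells against 71.3 CPM (58.4 to 86.1) in blood basophil and mast-like cells.

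The cells that carried several eosinophil genes in blood were mostly cells with basophil genes. At least 3 of the 8 eosinophil members were detected in 15, 35 and 30 barcodes of naïve, sham and SCI blood and in 9 of SCI cord. Of the 80 blood barcodes, 71 also had at least 3 of 8 basophil genes (88.8%, 79.7 to 94.7%), which was 18.8% of the 378 blood barcodes with 3 or more basophil genes. In the cord 3 of 9 did (33.3%, 7.49 to 70.1%), or 13.6% of 22. IL3RA, the IL-3 receptor chain, stood in the basophil list but was also found in 37 of the 44 eosinophil-like cells. Conversely CLC, CCR3 and IL5RA, which basophils share, are among the 8 members, so a basophil can reach 3 members with these alone. Blood also held 380 basophil and mast-like against 26 eosinophil-like cells. The blood overlap can thus follow from the lists and cell numbers, and does not by itself show eosinophils with basophil genes. The list of further eosinophil genes was met in 6 of the 80 blood barcodes and in 4 of the 9 cord barcodes. At 1000 UMIs a cell the blood counts of barcodes with 3 or more members were 2, 6 and 6 and the cord count was 0, so most of these barcodes were seen at full depth only.

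Few of these barcodes met the neutrophil list, but few barcodes of any kind did. Of the 80 blood barcodes 1 had at least 3 of 24 neutrophil genes (1.25%), beside 141 of all 17968 blood barcodes. Of the 9 cord barcodes none had, beside 9 of all 138. These counts are too small to tell whether eosinophil members and neutrophil genes go together. The barcodes that did meet the neutrophil list, 141 in blood (75, 57 and 9 in naïve, sham and SCI) and 9 in cord, all lay in monocyte-like clusters. Their genes were mainly receptors shared with monocytes, and in the 285 blood monocyte-like cells FPR1 was detected in 223 and CSF3R in 175. Neutrophil granule genes proper were scarce apart from BPI, which was in 115 of these cells. LTF was in 18 and MPO in 5, and MMP8, OLFM4, DEFA3, DEFA4 and CHI3L1 were at 0. Only 8 of all blood barcodes held 3 or more of 17 granule genes, and among these 8 CAMP was in 3, VSTM1 in 5, RNASE2 in 3 and RNASE3 in 1, while EPX, CLC, PRG2, IL5RA, SIGLEC8 and CCR3 were at 0.

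**Figure D3:**
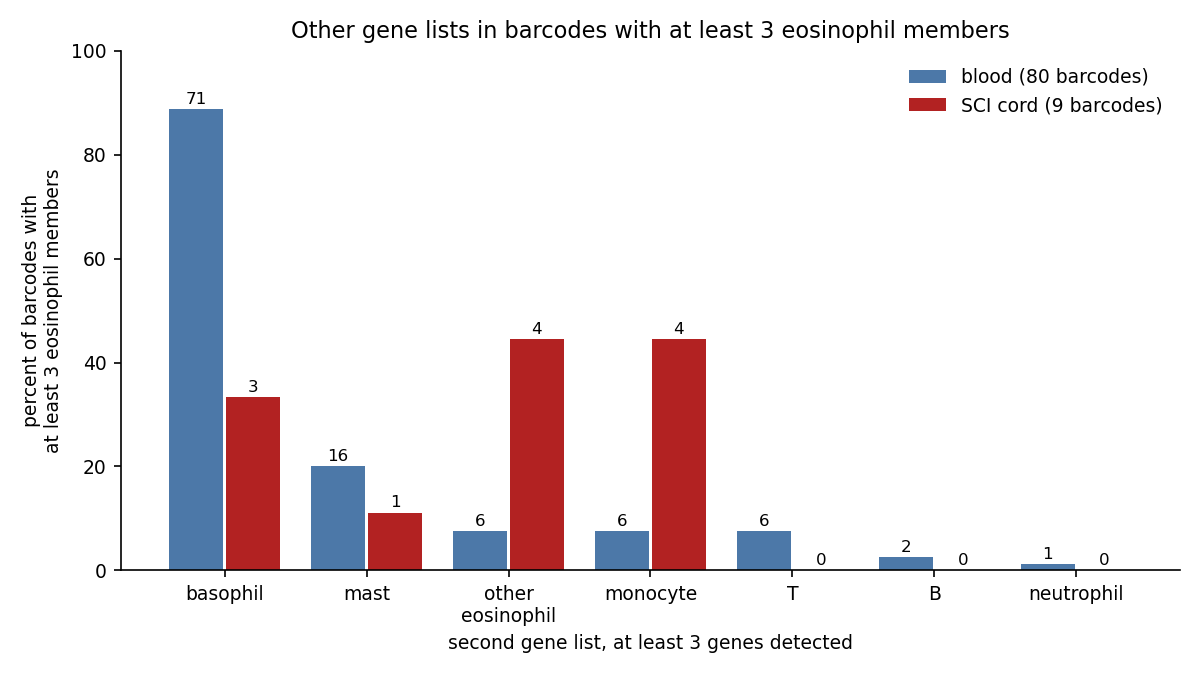
Percent of barcodes with at least 3 of the 8 eosinophil members that also had at least 3 genes of each other list, for blood (80 barcodes) and SCI cord (9 barcodes), with the number of barcodes above each bar. In blood 88.8% met the basophil list and 1.25% the neutrophil list, which 378 and 141 of all 17968 blood barcodes met.

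Single members differed in the same way. In blood at least 3 basophil genes accompanied 84.6% of PRG2 carriers (11 of 13), 87.5% of SIGLEC8 carriers (35 of 40), 69.3% of CLC carriers (224 of 323) and 60.9% of CCR3 carriers (223 of 366). The share was 38.9% for EPX (7 of 18) and 4.88% for RNASE2 (4 of 82). At least 3 neutrophil genes accompanied 56.1% of RNASE2 carriers (46 of 82), 42.5% of VSTM1 carriers (62 of 146) and 23.0% of CAMP carriers (32 of 139), against 0.310% of CLC carriers and 5.56% of EPX carriers. CAMP was carried with both kinds of genes, since 50.4% of its carriers met the basophil list. Of the 297 IL5RA carriers, 58.2% met the T cell list, 38.05% (113) the basophil list and none the neutrophil list. Of the CCR3 carriers, 40.4% (148) met the T cell list. Among all 17968 blood barcodes 13637 met the T cell list, 378 the basophil list and 141 the neutrophil list. The T cell shares of both genes lay below that of all blood barcodes and do not tie these genes to T cells. EPX carriers were split, 27.8% meeting the monocyte list and 27.8% the T cell list.

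Pairs of members were counted as well. In blood the most frequent pair was CLC with CCR3, in 188 barcodes (of 323 and 366 carriers), then CLC with IL5RA in 76, IL5RA with CCR3 in 72 and CLC with CAMP in 59. RNASE2 and VSTM1 shared 40. EPX was with CLC in 14 of its 18 carriers and with RNASE2 in 10. In the cord CLC occurred with CAMP in 22 barcodes and with VSTM1 in 22, out of 32, 26 and 29 carriers, and CAMP with VSTM1 in 21. SIGLEC8 was with CLC in 16 of its 19 cord carriers. CLC, CAMP and VSTM1 were detected together in 15 of 17968 blood barcodes, 8 basophil and mast-like and 7 eosinophil-like, and in 17 of 138 cord barcodes, of which 14 were eosinophil-like.

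**Figure D4:**
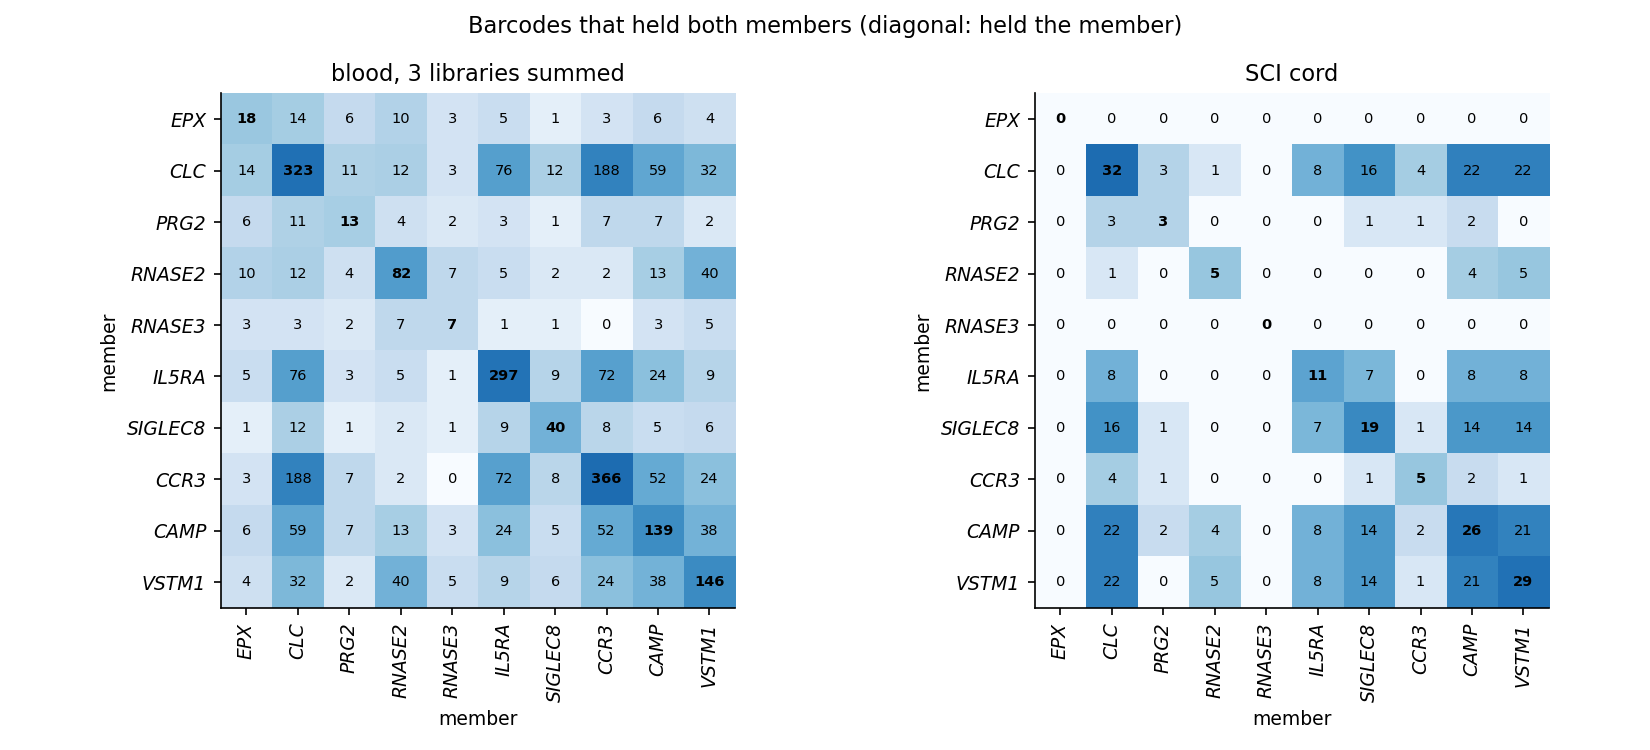
Number of barcodes in which each pair of the 10 genes was detected together, for blood and SCI cord, with each gene's own number of carriers on the diagonal. CLC with CCR3 was the most frequent pair in blood (188 barcodes), and CLC with CAMP or VSTM1 in the cord (22 each).

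Of the 10 members, 6 were detected in eosinophil-like cells of both blood and cord, and EPX, RNASE2, RNASE3 and PRG2 in those of blood alone. EPX was in 7 of 26 blood cells (26.9%, 11.6 to 47.8%) and in 0 of 18 cord cells, where 3 counts would be 16.7% of cells with a UMI. RNASE2 was in 7 and 0 cells, RNASE3 in 3 and 0, PRG2 in 2 and 0, and PRG3, a homologue of major basic protein, in 3 and 0. The granule protein genes were therefore listed at 0 in all 18 cord cells although these were the deeper cells. By level, EPX was at 1678 CPM in sham blood eosinophil-like cells (61 UMIs) and 200.3 CPM in those of SCI blood (6 UMIs in 2 cells), while 3 counts would give 19.7 CPM in the cord cells. The upper 95% limit of the log2 ratio of cord to SCI blood cells was -2.58 for EPX and -3.33 for RNASE2 (0 against 9 UMIs). In SCI blood 4 of the 6 EPX UMIs lay in 1 cell and 7 of the 9 RNASE2 UMIs in another, so these limits rested largely on single cells. Of the 61 sham EPX UMIs, 46 lay in 1 cell that also held 461 CLC, 41 RNASE2 and 100 S100A8 UMIs. Without that cell the sham cells were at 475 CPM for EPX (15 UMIs) and 158 CPM for RNASE2 (5 UMIs).

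CLC was found in both, with 24 of 26 blood cells and 17 of 18 cord cells positive. Its UMIs per cell ranged widely, with medians of 7, 33, 8 and 19 and maxima of 25, 461, 363 and 362 in naïve, sham and SCI blood and cord. As a level the SCI blood cells were at 15024 CPM and the cord cells at 9092 CPM (log2 ratio -0.73, -0.88 to -0.57), but without the 3 cells richest in CLC in each library the levels were 1147 and 4206 CPM and the ratio turned to 1.85 (1.29 to 2.52). A direction for CLC inside the cluster thus rested on 3 cells per library.

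VSTM1, CAMP and SIGLEC8 were found in more of the cord cells. VSTM1 was in 13 of 26 blood cells and 18 of 18 cord cells, with a median of 0, 1, 1 and 5.5 UMIs in naïve, sham and SCI blood and cord. CAMP was in 10 and 15 cells and SIGLEC8 in 4 and 12. These shares moved with depth. Thinned to 1000 UMIs, VSTM1 was in 7 of 22 blood and 6 of 18 cord cells, CAMP in 6 and 7, and SIGLEC8 in 0 and 1. As levels against SCI blood cells, the cord cells had log2 ratios of 0.06 for CAMP (-0.68 to 0.97) and 0.35 for VSTM1 (-0.40 to 1.28), intervals that held 0. In basophil and mast-like cells CAMP was higher in the cord than in SCI blood, as given below. EPX, thinned in the same way, was in 5 of 22 blood cells and 0 of 18 cord cells.

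Among the receptors, IL5RA was in 7 of 26 blood and 7 of 18 cord eosinophil-like cells and CCR3 in 4 and 1. The receptors for the human cytokines made by the host were widely detected. CSF2RB, the common beta chain of the IL-3, IL-5 and GM-CSF receptors, was in 21 blood cells and 18 cord cells, IL3RA in 21 and 16 and CSF2RA in 8 and 13, while KIT, the receptor of KITLG, was at 0 in both. In basophil and mast-like cells KIT was found in 197 of 380 blood cells.

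The 8 further eosinophil genes, which also helped to name the cluster, were counted as well. ADGRE1, which encodes the F4/80 homologue EMR1 of human eosinophils, was in 12 of 26 blood and 16 of 18 cord cells, the transcription factor OLIG1 in 15 and 13, the granulocyte factor CEBPE in 5 and 9 and the histamine receptor HRH4 in 4 and 5. ALOX15, a lipoxygenase of eosinophils, was in 7 and 3, OLIG2 in 5 and 2 and SMPD3 in 6 and 0. All 8 genes of this list were detected in blood cells and 6 of 8 in cord cells. Outside the cluster, ADGRE1 was in 90 of 380 blood basophil and mast-like cells, but OLIG1 in 13 and OLIG2 in 0.

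Genes of other cell types were also counted in these cells. Of the neutrophil lists, the primary granule gene BPI was in 11 of 26 blood cells (22 UMIs) with the other 6 genes at 0, the secondary granule genes CEACAM8, ARG1 and PGLYRP1 had 2, 1 and 1 UMIs, and in the cord cells all 17 granule genes were at 0. Of the 7 genes of mature neutrophils, 2 were detected in blood cells (3 UMIs) and 3 in cord cells (45 UMIs, 40 of them in 1 cell). Of 8 basophil genes the blood cells had IL3RA alone, with HDC at 0, and the cord cells had 4 of 8, with FCER1A in 5 cells and HDC at 0. HPGDS, a prostaglandin synthase of the mast cell list that eosinophils also express, was in 10 of 18 cord cells. T cell genes were seen in a few cells, with CD3D in 2 cord cells. The monocyte list had a median of 18.5 summed UMIs in blood cells and 5 in cord cells, 6 of its 10 genes being detected in each, and 5 genes shared by myeloid cells had medians of 7 and 47.5. Their part in the results above was not tested.

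Within SCI blood the cluster divided by the calprotectin genes S100A8 and S100A9, a division noticed in the data. Of its 8 cells, 4 had neither gene, and these 4 all held CAMP, VSTM1 and ADGRE1 and none held EPX, RNASE2 or RNASE3. The other 4 had S100A8 or S100A9, with EPX, RNASE2 or RNASE3 in 3 of them and VSTM1 in 0. In sham blood all 13 cells had S100A8 or S100A9, with EPX, RNASE2 or RNASE3 in 4, VSTM1 in 7 and CAMP with VSTM1 in 3. In naïve blood 4 cells had S100A8 or S100A9, with VSTM1 in 2. The 1 naïve cell without them held none of CAMP, VSTM1 or ADGRE1. VSTM1 was thus not limited to cells without these S100 genes in naïve or sham blood. In the cord 9 cells were with and 9 without these S100 genes, VSTM1 was in all 18, and EPX, RNASE2 and RNASE3 were in none of either. The 4 SCI blood cells without S100 genes had 4200 to 8582 UMIs and the other 4 had 1055 to 8060, so depth moved with the division. Of the 4 without S100 genes, 1 was marked as a doublet and held 6 B cell genes.

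**Figure D5:**
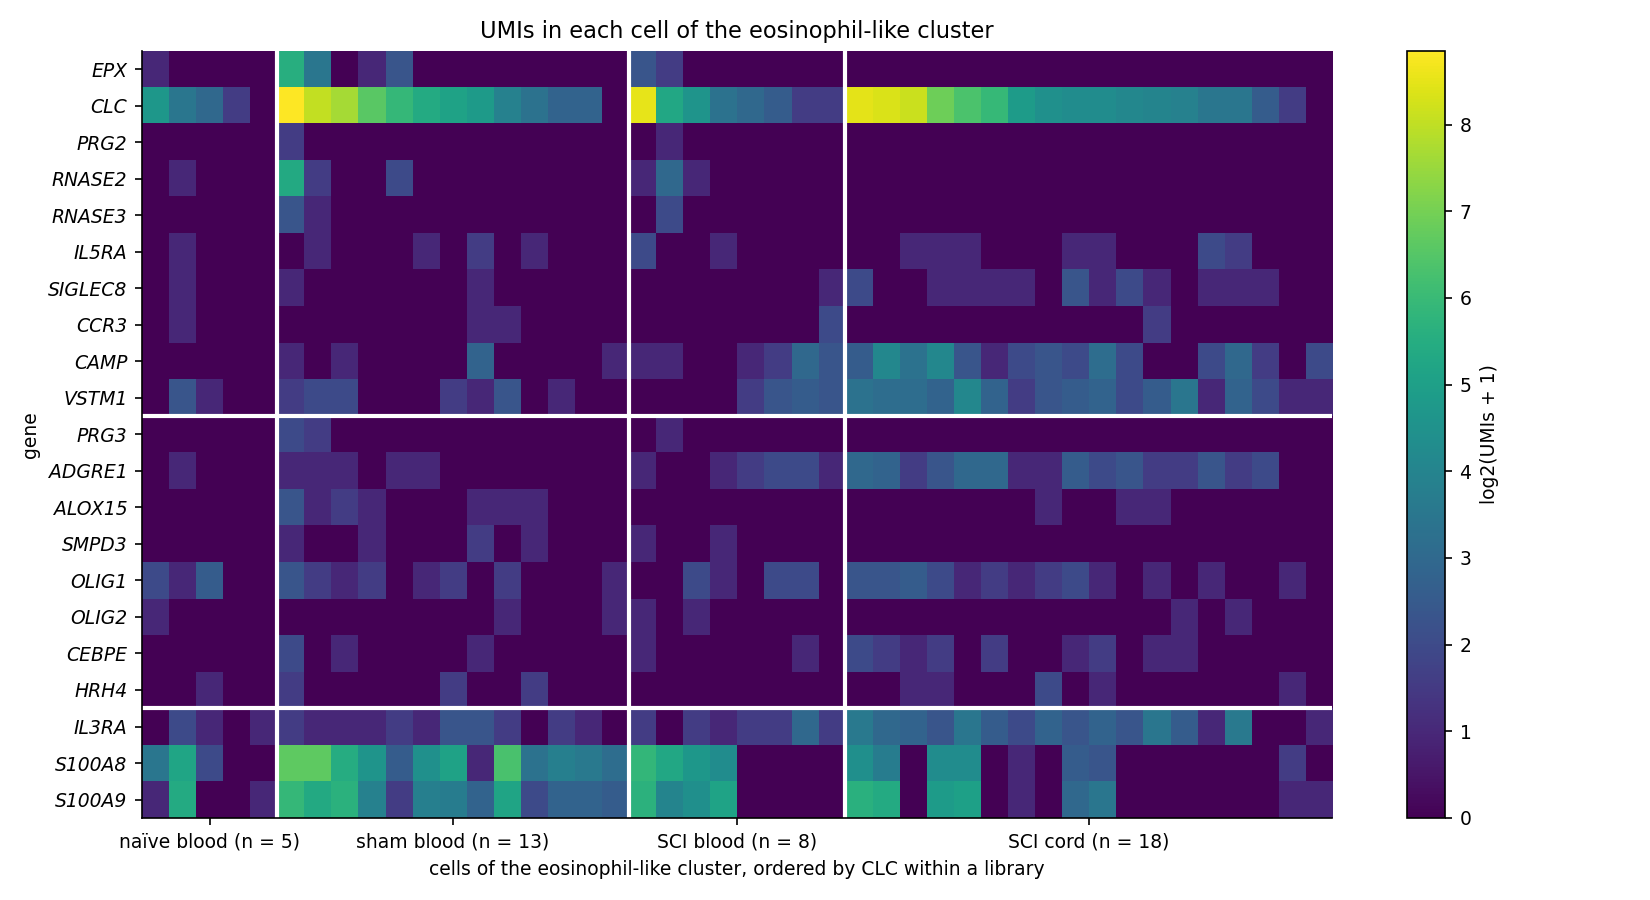
UMIs of the members (top), of 8 further eosinophil genes (middle) and of IL3RA, S100A8 and S100A9 (bottom) in each of the 44 eosinophil-like cells, 1 column per cell ordered by CLC within each library (5 naïve, 13 sham and 8 SCI blood, 18 SCI cord), with colour as log2 of UMIs plus 1. EPX, RNASE2 and RNASE3 appear in blood cells only, and VSTM1 in all 18 cord cells.

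EPX in basophil and mast-like cells marked a small group. These cells held 59.8% of the 179 blood EPX UMIs, in 7 of 380 cells. Those of naïve, sham and SCI blood held 83, 20 and 4 of them, and all 83 were in 1 cell marked as a doublet. Eosinophil-like cells held 1, 61 and 6 EPX UMIs in the same order, so the 59.8% rested on that cell. PRSS57, a serine protease of granulocyte progenitors, was in all 7 and in 56 of the 373 without EPX (15.0%), and thinned to 1000 UMIs the shares were 71.4% and 4.90%. RNASE2 was in 4 of the 7 and in 0 of the 373, PRG2 in 4 of 7 and 7 of 373, and CLC in 6 and 223, with a median of 346 against 2 UMIs. The basophil genes HDC and GATA2 were detected in all 7, and SIGLEC8 in none of the 7 against 35 of the 373. EPX, PRG2 and RNASE2 were detected all together in 2 of the 7, both marked as doublets. The 7 cells were deep, with a median of 8803 UMIs against 3933, and 3 of them were marked as doublets. The richest, from naïve blood, held 25999 UMIs, with 83 for EPX, 819 for CLC, 12 for PRG2, 23 for RNASE2, 17 for PRSS57, 21 for HDC and 23 for GATA2.

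Inside the basophil and mast-like cluster, member levels also differed between libraries. CLC was at 6590, 5471, 2517 and 6282 CPM in naïve, sham and SCI blood and cord, with a log2 ratio of -1.12 (-1.21 to -1.03) for SCI against sham blood and 1.32 (1.20 to 1.44) for cord against SCI blood. Without the 3 richest cells of each library the first was -0.92 (-1.02 to -0.81) and the second turned to -0.94 (-1.27 to -0.65). The difference between SCI and sham blood was then under 2-fold, and the direction of the cord ratio rested on the richest cells. CLC was detected in 67.0%, 58.3%, 56.9% and 40.0% of these cells, nearly the same share in sham as in SCI blood.

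CCR3 in these cells was at 463, 400 and 514 CPM in naïve, sham and SCI blood and 80.8 CPM in the cord (log2 ratio to SCI blood -2.61, -3.69 to -1.81). It was detected in 57.8%, 56.7%, 61.1% and 15.0% of cells, the last being 3 of 20. IL5RA was at 130, 107, 99.9 and 22.0 CPM, with a cord to SCI blood ratio of -1.97 (-4.50 to -0.56). SIGLEC8 went the other way, at 25.3, 24, 35.7 and 88.2 CPM (1.33, 0.14 to 2.41), as did CAMP with 72.9, 96.0, 42.8 and 140 CPM (1.71, 0.76 to 2.63) and PRG2 with 38.02, 12.8, 5.35 and 140 CPM (4.52, 2.94 to 7.10, 3 and 19 UMIs). The cord cells of this cluster held more mast cell RNA, as given above, and its part in these differences was not tested.

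Some cord barcodes outside both clusters carried CLC. A B-like cell of 23832 UMIs held 88 CLC, 9 CAMP, 9 VSTM1 and 2 SIGLEC8 UMIs beside 15 CD79A and 26 MS4A1 UMIs, and a cycling-like cell of 13579 UMIs held 76 CLC, 3 IL5RA, 2 CAMP and 2 VSTM1 UMIs beside 15 for MKI67. A T-like cell held 12 CLC UMIs beside 10 for CD3D and 7 for HDC, and 4 further cells had 1 CLC UMI each. The B-like and the T-like cell thus held genes of more than 1 cell type. The doublet rate used marks none in a library of this size, and whether these were doublets was not tested.

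The genes whose levels over the 17 clusters were most like each member were taken as a description, by Pearson correlation over clusters that come from the same 4 libraries. For CLC they were IL1RL1, the IL-33 receptor (0.909), PAPSS1 (0.872) and WNT11 (0.860). For EPX and SIGLEC8 the GATA factor gene GATA1 was among the 3 closest (0.994 and 0.997), and for CCR3 the IgE receptor gene FCER1A (0.931). RNASE2 was closest to STON2 (0.999), VSTM1 to SUCNR1 (0.994) and IL5RA to ADGRB2 (0.896), and CAMP came close to ADGRE3 (0.990).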

How the data were processed

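Blood and cord huCD45+ cells were sequenced as 10x 3' v3 libraries. The authors deposited whole-number UMI counts per gene and barcode, not normalised, made with Cell Ranger 3.1.0 (submitters' processing notes) on a combined human and mouse reference (GRCh38 and mm10). Barcodes with over 50% human UMIs were kept, leaving 6713 (naïve), 4972 (sham), 6283 (SCI blood) and 138 (cord). Blood held 148, 127 and 121 barcodes with 50 to 90% human UMIs, and the cord 3.

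Doublets were marked with Scrublet scores (scanpy 1.11.5), taking the highest scores at 0.8% per 1000 barcodes, since its own threshold marked 0, 3, 185 and 9 barcodes. The 361, 198, 316 and 0 marked barcodes were kept and removed only as an alternative. Clusters came from Leiden on 2000 variable genes without the members, scaled within each library (30 components, 15 neighbours, resolution 0.8). Names required at least 3 markers in 10% of cells and the most markers among the 10 leading genes. This scoring rule was written after values had been seen, and the members and gene lists were chosen with earlier results of these data known. A list was met by a barcode with at least 3 of its genes. Named genes were the members, the genes of the fixed lists and the 3 genes most like each member; S100A8 and S100A9 were singled out, and PTPRC added, after values were seen.

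Intervals were 95% exact Poisson for CPM, Clopper-Pearson for shares and conditional binomial for ratios. They cover counting error only, and a count of 0 was given as at most 3 counts. With 1 library per group no test was made. The ratio script was tested on simulated data. Shares were compared across depths by thinning to 1000 UMIs, leaving out 132, 38, 45 and 9 shallower barcodes. Python 3.11.15, numpy 2.4.6, scipy 1.17.1 and pandas 2.3.3 were used.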

Additional observations from a re-analysis of the deposited data

Results flagged for a closer look

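In barcodes with most UMIs on mouse genes, which none of the comparisons used, CLC had 55 UMIs in 11 of 93 SCI cord barcodes (11.8%, 6.05 to 20.2%), against 6 of 1411 in naïve blood (0.425%). Of the 55 UMIs, 43 were in a barcode that was 19.0% human. VSTM1 had 8 UMIs in 3 of these 93 cord barcodes (3.23%), 6 of them in the same barcode, against 0 of 1411 in naïve blood. Mouse-majority barcodes had a median of 26590 UMIs in the cord and 2066 in naïve blood, with 43 and 15 of these UMIs on human genes.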

How the results depend on the processing

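No paired analysis was possible because each group was 1 library. Of 300 values under alternative settings, 242 stayed within 1.5 times or the counting interval, 56 moved and 2 that had been past 2-fold changed sign. Both were the EPX ratio of SCI to naïve blood, 2.08 without the naïve barcode richest in EPX (10 against 2 UMIs) and 1.39 without the richest barcode of each blood library (6 against 2 UMIs). Both lay under the minimum of 20 UMIs, so no direction was read from them. Of the member ratios within 2-fold, 8 values changed sign. Leaving out barcodes rich in EPX or CLC was decided on after seeing the data. Barcodes with at least 3 eosinophil members numbered 2, 15, 7 and 2 (naïve, sham and SCI blood, cord) at 2 UMIs per gene and 2, 6, 6 and 0 when thinned to 1000 UMIs. The basophil overlap in blood was then 75% (18 of 24) and 71.4% (10 of 14), and in cord 100% (2 of 2) at 2 UMIs and without a value when thinned. The neutrophil overlap in blood was 0% at 2 UMIs, when thinned and without marked doublets. Members past 2-fold between sham and naïve blood numbered 3 by UMIs per barcode and 4 without marked doublets. Genes past 2-fold numbered 1702 (sham to naïve), 2289 (SCI to naïve) and 1802 (SCI to sham) with at least 5 counts, and 276, 507, 272 and 1517 (cord to SCI blood) with at least 100. Without marked doublets CLC in SCI against naïve blood moved from -0.20 to 0.44 and EPX in sham against naïve blood to 5.01, and by UMIs per barcode CCR3 in cord against SCI blood moved from -0.10 to 1.02. Eosinophil-like cells numbered 3 in naïve and 7 in sham blood inside the filter of 3 median absolute deviations, and 3 in naïve blood at 1000 UMIs or more.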

Other observations

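Mouse orthologues of the granule genes were counted separately. Epx and Prg2 were at 0 in all 4 libraries, and Camp had 155 UMIs in the mouse-majority barcodes of sham blood. The mouse ribonuclease genes Ear1 and Ear2 had 171 and 450 UMIs in those of sham blood. They had 47 and 161 in SCI blood, 1 and 5 in naïve blood and 0 in SCI cord. No UMI of these genes was in the 44 eosinophil-like cells.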
